A study of Mus musculus with 8 samples.

Results

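The reactive astrocyte genes Gfap, Vim, Aqp4, Serpina3n, Lcn2, Cd44, Osmr, Stat3 and S1pr3 were read by gene name from the raw count table of mouse cortex. All 9 names were found among 54532 listed genes, and 8 of them passed the filter on low counts, together with 17195 genes in all. The exception was Lcn2. The rule used the names alone and no measured value, but the names were chosen with earlier results of these data known. The genes were described by genotype and by how they varied together over the mice.

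Cortical RNA was sequenced from 4 PS19 mice and 4 Adrb1-A187V;PS19 mice, all 8 mo old, of the C57BL/6 strain and singly housed under a 12:12 light-dark cycle (LD 12:12), with 1 library per mouse. PS19 mice express human 1N4R tau with the P301S mutation from the mouse prion promoter, and mice of both genotypes carry this transgene. The Adrb1-A187V;PS19 mice also carry 1 copy of the A187V mutation in Adrb1, the gene of the beta-1 adrenergic receptor, which was made by CRISPR knock-in. No mice without the tau transgene were in this comparison, so the genotypes differ in the Adrb1 mutation and not in the tau transgene. By the paper's general methods the mice were male unless noted and the controls were littermates, but no label gives a sex or a litter. The libraries held 14653222 to 21223754 counts, and libraries within a genotype differed beyond counting noise (chi-square per degree of freedom of 4.83 to 9.94). Over the 8 mice the summed level of 14 genes of resting astrocytes was 7701 to 8449 CPM (counts scaled to the library size). The sum of 6 neuron markers was 5420 to 6208 CPM. These sums show brain tissue but cannot tell cortex from other brain regions. The sum of striatal markers ran from 484.3 CPM in PS19 mouse m677 to 1170.5 CPM in Adrb1-A187V;PS19 mouse m671. That of choroid plexus and ependymal markers ran from 33.0 CPM in m661 to 586.7 CPM in m658, both Adrb1-A187V;PS19 mice. The part of this uneven tissue content in the levels below was not tested.

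Astrocytes are the glial cells that take up glutamate, buffer potassium and cover blood vessels with their endfeet. In injury, infection and neurodegeneration they become reactive: the cells enlarge, build more intermediate filaments and switch on secreted and surface proteins. Cytokines of the interleukin-6 family, which signal through receptors such as the oncostatin M receptor to the transcription factor STAT3, are among the best known triggers, and the filament protein GFAP is the usual histological mark of the state. These measurements are of whole tissue, in which a change in the number of cells and a change in the RNA of each cell cannot be told apart.

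Promoters are shown for 4 of the genes that varied most closely together over the mice, the filament gene Gfap, the receptor gene Osmr, the transcription factor gene Stat3 and the inhibitor gene Serpina3n. The windows run 5′ to 3′ on the strand of the gene, from 250 bases before the RefSeq start site to 30 bases after it (GRCm38.p6), and capitals mark a match to a searched motif.
Gfap, chr11:102897171-102897450, minus strand: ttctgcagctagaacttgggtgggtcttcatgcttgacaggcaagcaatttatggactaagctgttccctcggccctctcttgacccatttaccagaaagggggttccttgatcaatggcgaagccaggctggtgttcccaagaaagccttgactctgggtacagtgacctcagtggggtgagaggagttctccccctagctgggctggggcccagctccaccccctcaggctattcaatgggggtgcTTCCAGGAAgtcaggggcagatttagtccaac
Osmr, chr15:6874284-6874563, minus strand: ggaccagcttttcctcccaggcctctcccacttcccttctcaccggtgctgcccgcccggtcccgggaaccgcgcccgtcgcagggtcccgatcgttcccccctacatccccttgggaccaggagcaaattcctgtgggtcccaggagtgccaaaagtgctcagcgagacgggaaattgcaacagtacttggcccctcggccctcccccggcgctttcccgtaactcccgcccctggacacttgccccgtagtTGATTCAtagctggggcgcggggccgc
Stat3, chr11:100939511-100939790, minus strand: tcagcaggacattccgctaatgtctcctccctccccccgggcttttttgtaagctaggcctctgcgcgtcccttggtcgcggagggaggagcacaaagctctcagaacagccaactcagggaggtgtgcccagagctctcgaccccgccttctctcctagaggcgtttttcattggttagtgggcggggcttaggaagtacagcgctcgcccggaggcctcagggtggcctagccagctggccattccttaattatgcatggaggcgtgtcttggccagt
Serpina3n, chr12:104406458-104406737, plus strand: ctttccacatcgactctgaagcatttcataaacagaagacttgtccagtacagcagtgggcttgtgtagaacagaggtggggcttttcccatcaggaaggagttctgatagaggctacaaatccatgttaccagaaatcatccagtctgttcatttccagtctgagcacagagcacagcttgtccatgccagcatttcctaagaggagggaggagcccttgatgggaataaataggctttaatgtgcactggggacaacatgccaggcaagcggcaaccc
The motifs searched on both strands, in windows of 300 bases, were TTCNNNGAA, the core bound by STAT factors, TGANTCA, the AP-1 core, and TTGCNNAA, a C/EBP-type core. These letter patterns do not overlap one another in the windows of the genes described here. A window was found for 8 of the 9 genes by symbol, all but Aqp4. The STAT core occurred in 1 of these 8, that of Gfap, as TTCCAGGAA with its first base at position -2 from the start site, and in 8.30% of all 32851 windows. The AP-1 core occurred in 1 of 8, that of Osmr, as TGATTCA with its first base at position 4, and in 7.81% of all windows. The C/EBP-type core occurred in 1 of 8, that of Lcn2, as TTGCTCAA with its first base at position -216, and in 10.8% of all windows. The Stat3 and Serpina3n windows above held none of these 3 letter patterns. A match describes the letters and is not a binding site.

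Per base of gene length, Gfap had the highest mean level of the 9 genes. Its mean over the 8 mice was 123.8 CPM per kb and its range 43.1 to 198.7. Aqp4 followed with a mean of 28.7 CPM per kb and a range of 20.1 to 36.2, which did not reach that of Gfap. The range of Serpina3n, 5.01 to 22.1 CPM per kb with a mean of 14.1, overlapped those of its neighbours Aqp4 and Vim. Vim had a mean of 9.11 CPM per kb and a range of 6.49 to 11.8, and its lowest mouse lay below the highest mouse of Stat3. Stat3 had a mean of 6.21 CPM per kb and a range of 5.67 to 6.62. The receptor genes stood lower. S1pr3 had a mean of 2.02 CPM per kb and a range of 1.66 to 2.35, apart from its neighbours on both sides. Cd44, with a mean of 0.666, and Osmr, with a mean of 0.652 CPM per kb, did not differ beyond their ranges. Lcn2 was the lowest, with a mean of 0.0977 CPM per kb.

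The first comparison asked whether any of these genes differed with the Adrb1-A187V mutation. None of the 8 tested genes passed, at an adjusted or at an unadjusted p-value under 0.05, in edgeR's quasi-likelihood test. Of all 17195 genes tested, 481 or 2.80% had an unadjusted p-value under 0.05, and the share with an adjusted p-value under 0.05 was 0.0%. In the same mice DESeq2's Wald test gave 555 genes at the unadjusted threshold and limma-voom 492, and both gave 0 adjusted calls. All 8 genes also overlapped between the genotypes, whereas 348 genes or 2.02% of those tested did not overlap. The log2 fold change, Adrb1-A187V;PS19 over PS19, was above 0 for 5 of the 8 genes, and its median was 0.03, beside 0.00 over all genes tested. The smallest unadjusted p-value of the 8 was 0.577, for Osmr, and every p of this edgeR test was 0.9996 after Benjamini-Hochberg adjustment over all genes. Levels below are CPM normalized with edgeR's TMM factors, and each fold change is given with its standard error (SE) and 95% interval.

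**Figure D1:**
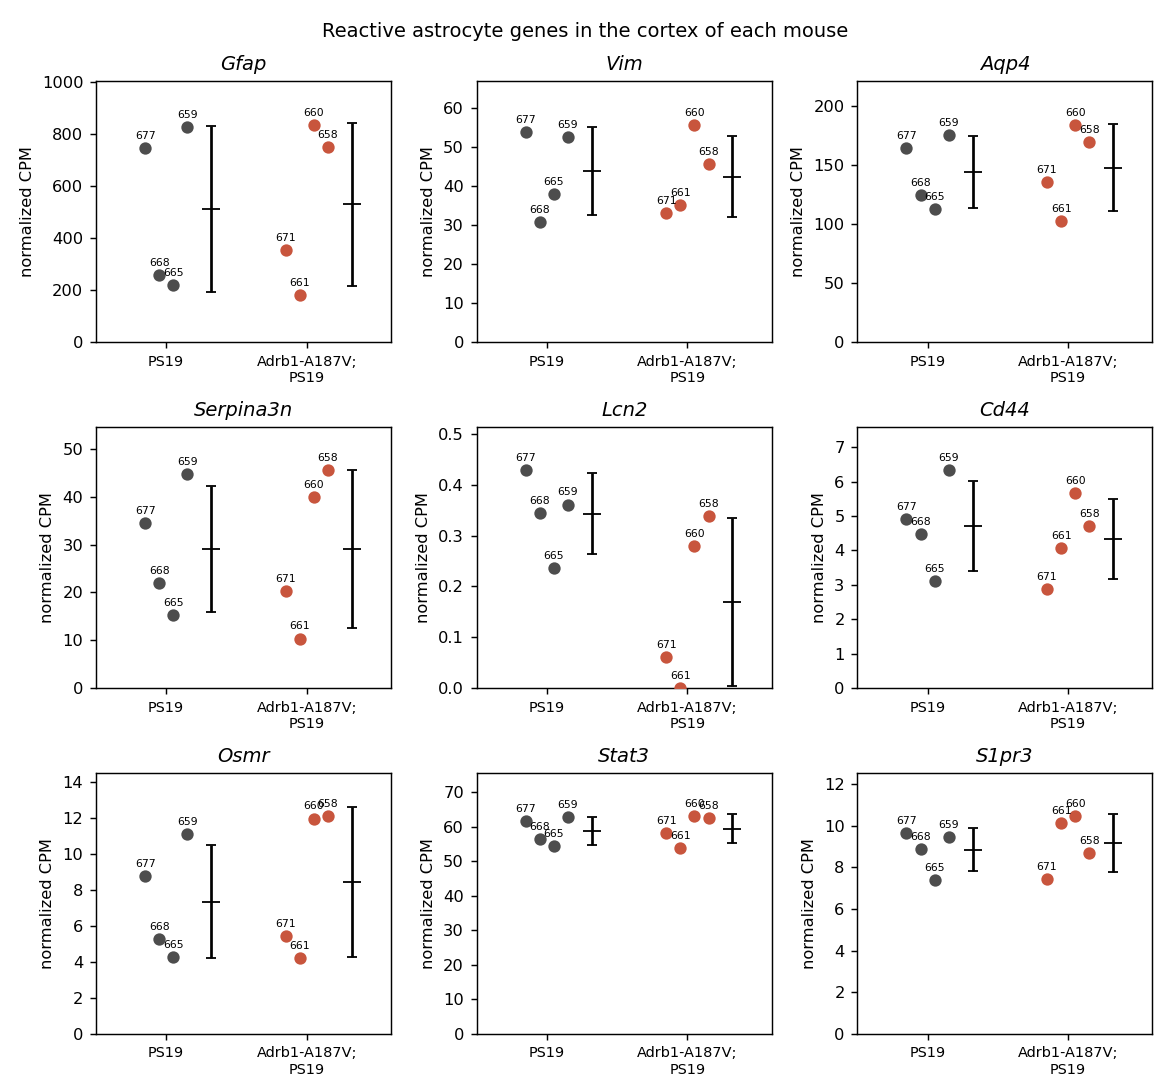
Normalized CPM (vertical axes, from 0) of the 9 genes in each of 4 PS19 (grey) and 4 Adrb1-A187V;PS19 (red) mice; numbers beside the points name the mice, and bars show the mean ± SD of each genotype. Both genotypes hold 2 mice with high and 2 mice with low Gfap, and the genotypes overlap in every panel.

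The filament genes came first. Gfap (ENSMUSG00000020932, chr11:102887336-102900912, minus strand), which encodes the main intermediate filament protein of reactive astrocytes, had 748.4 CPM in PS19 mouse m677, 256.6 in m668, 219.6 in m665 and 826.7 in m659. In Adrb1-A187V;PS19 mice it had 353.6 CPM in m671, 181.7 in m661, 837.9 in m660 and 752.0 in m658. Each genotype thus held 2 mice with 748.4 CPM or more and 2 mice with 353.6 CPM or less, and no mouse lay between. The mean was 512.8 ± 319.2 CPM (SD, n = 4) in PS19 mice. It was 531.3 ± 314.4 CPM (SD, n = 4) with the mutation, and the log2 fold change was 0.05 (SE 0.46, interval -0.94 to 1.04). The highest mouse had 3.76 times the level of the lowest among PS19 mice and 4.61 times among Adrb1-A187V;PS19 mice.

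Vim (ENSMUSG00000026728, chr2:13573927-13582826, plus strand) encodes vimentin, the filament protein that assembles with GFAP and is also made by vascular cells. It had 53.8 CPM in PS19 mouse m677, 30.8 in m668, 38.1 in m665 and 52.8 in m659, and 33.2 CPM in Adrb1-A187V;PS19 mouse m671, 35.2 in m661, 55.9 in m660 and 45.6 in m658. The same 4 mice as for Gfap were the 4 highest, by a smaller ratio of 1.81 between the highest and the lowest mouse. The log2 fold change between the genotypes was -0.05 (SE 0.18, interval -0.43 to 0.34).

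Aqp4 (ENSMUSG00000024411, chr18:15389394-15403684, minus strand) encodes aquaporin-4, the water channel of astrocyte endfeet. It had 164.5 CPM in PS19 mouse m677, 124.1 in m668, 112.9 in m665 and 175.2 in m659, and 135.4 CPM in Adrb1-A187V;PS19 mouse m671, 102.2 in m661, 184.1 in m660 and 169.0 in m658. From the highest to the lowest, the 8 mice stood in exactly the order they had for Gfap. Between the genotypes its log2 fold change was 0.03 (SE 0.17, interval -0.32 to 0.39).

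Among the secreted products, Serpina3n (ENSMUSG00000021091, chr12:104406729-104414329, plus strand) encodes a serine protease inhibitor and belongs to a cluster of near-identical genes, between which reads can be divided. It had 34.5 CPM in PS19 mouse m677, 21.9 in m668, 15.3 in m665 and 44.8 in m659, and 20.2 CPM in Adrb1-A187V;PS19 mouse m671, 10.3 in m661, 40.0 in m660 and 45.6 in m658. The highest mouse had 4.40 times the level of the lowest, nearly the ratio seen for Gfap, and both belonged to the Adrb1-A187V;PS19 genotype. Serpina3n had a log2 fold change of -0.01 (SE 0.38, interval -0.83 to 0.82).

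Lcn2 (ENSMUSG00000026822, chr2:32384633-32388252, minus strand) encodes lipocalin-2, an iron-siderophore binding protein that strongly reactive astrocytes secrete. It was close to the limit of detection, with 7 counts in PS19 mouse m677, 5 in m668, 5 in m665 and 6 in m659, and 1 count in Adrb1-A187V;PS19 mouse m671, 0 in m661, 5 in m660 and 6 in m658. The 2 lowest mice, m671 and m661, were the 2 Adrb1-A187V;PS19 mice with low Gfap, while the 2 PS19 mice with low Gfap had 5 counts each. A count of 0 in m661 allows a level of up to 0.144 CPM (3 counts, counting error only). The gene was removed by the filter and not tested by edgeR, DESeq2's Wald test gave a log2 fold change of -1.02 (SE 0.88, p = 0.244), and a permutation of the CPM values over the mice gave an exact 2-sided p of 0.143. At this depth no difference was detectable.

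The receptor and signalling genes followed. Osmr (ENSMUSG00000022146, chr15:6813577-6874969, minus strand) encodes the oncostatin M receptor subunit that pairs with gp130. It had 8.76 CPM in PS19 mouse m677, 5.25 in m668, 4.30 in m665 and 11.1 in m659, and 5.46 CPM in Adrb1-A187V;PS19 mouse m671, 4.21 in m661, 12.0 in m660 and 12.1 in m658. The 4 mice with high Gfap had 8.76 CPM or more and the other 4 had 5.46 CPM or less. Its log2 fold change, at 0.20 (SE 0.35, interval -0.55 to 0.95), was the farthest from 0 of the 8 genes.

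Stat3 (ENSMUSG00000004040, chr11:100885098-100939540, minus strand) encodes the transcription factor that acts downstream of these receptors. It had 61.6 CPM in PS19 mouse m677, 56.4 in m668, 54.5 in m665 and 62.9 in m659, and 58.3 CPM in Adrb1-A187V;PS19 mouse m671, 54.0 in m661, 63.1 in m660 and 62.6 in m658. The mice differed by a ratio of only 1.17, yet stood in the order of Gfap without an exception. The log2 fold change was 0.02 (SE 0.07, interval -0.13 to 0.16), the narrowest interval of the 8 genes. Stat3 overlaps Stat5a on the opposite strand, and as the strand setting of the counting is not stated, reads from their shared part cannot be told apart. The same holds for Gfap with Gm26668, Cd44 with Gm23731 and S1pr3 with Gm32834.

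Cd44 (ENSMUSG00000005087, chr2:102811141-102901665, minus strand) encodes the cell surface receptor for hyaluronan, which immune cells carry as well. It had 4.90 CPM in PS19 mouse m677, 4.49 in m668, 3.12 in m665 and 6.32 in m659, and 2.88 CPM in Adrb1-A187V;PS19 mouse m671, 4.07 in m661, 5.65 in m660 and 4.70 in m658. The same 4 mice were again the highest, although m668 lay just below m658. Cd44 had a log2 fold change of -0.11 (SE 0.24, interval -0.63 to 0.40).

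S1pr3 (ENSMUSG00000067586, chr13:51408639-51422797, plus strand) encodes a receptor for sphingosine-1-phosphate that reactive astrocytes are known to increase. It had 9.68 CPM in PS19 mouse m677, 8.90 in m668, 7.41 in m665 and 9.46 in m659, and 7.44 CPM in Adrb1-A187V;PS19 mouse m671, 10.2 in m661, 10.5 in m660 and 8.72 in m658. It was the exception to the order, since m661, the mouse with the least Gfap, had the second highest S1pr3. The log2 fold change was 0.06 (SE 0.14, interval -0.24 to 0.36).

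**Figure D2:**
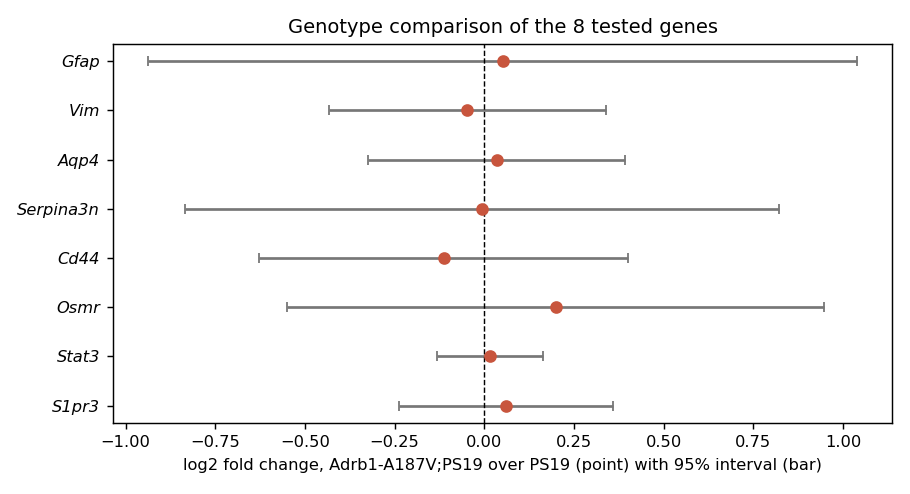
Log2 fold change of the 8 tested genes (horizontal axis, Adrb1-A187V;PS19 over PS19, n = 4 mice each) from edgeR's quasi-likelihood fit, with bars for the 95% interval. Every interval holds 0, and the intervals of Gfap, Serpina3n and Osmr are the widest while that of Stat3 is the narrowest.

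The intervals bound what this comparison could have missed. For Stat3 a log2 difference beyond 0.16 in either direction lay outside the interval, and for S1pr3 one beyond 0.36. For Gfap the interval reached from -0.94 to 1.04. The sign of each of the 8 fold changes turned on leaving out at least 1 of the mice, and none of the 8 passed the threshold without any single mouse.

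The spread between mice of the same genotype differed widely among these genes. The SD of log2 CPM within genotypes was 1.02 for Gfap, and 0.477% of all genes tested had a larger one, where the median gene had 0.152. Among the 4643 genes with a mean of at least 50 CPM, Gfap ranked 3 by this SD. It was 0.85 for Serpina3n, with 0.989% of genes above, and 0.70 for Osmr, with 2.34% above. Cd44, Vim and Aqp4 followed with 0.41, 0.37 and 0.35. S1pr3 had 0.20, and Stat3 had 0.10, a value that 70.2% of the genes tested exceeded.

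The second comparison asked whether the genes varied together over the 8 mice. As the genes were chosen with earlier results of these data known, the shares over all genes given beside them are a description. For Gfap, mice m660, m659, m658 and m677 formed the upper 4 and m671, m668, m665 and m661 the lower 4, with 2 mice of each genotype on either side. Of the 7 other tested genes, 6 were higher in each of the upper 4 mice than in any of the lower 4, and S1pr3 was not. Of all 17194 genes compared with Gfap, 660 or 3.84% were higher in the upper 4 in this way and 461 or 2.68% were lower.

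**Figure D3:**
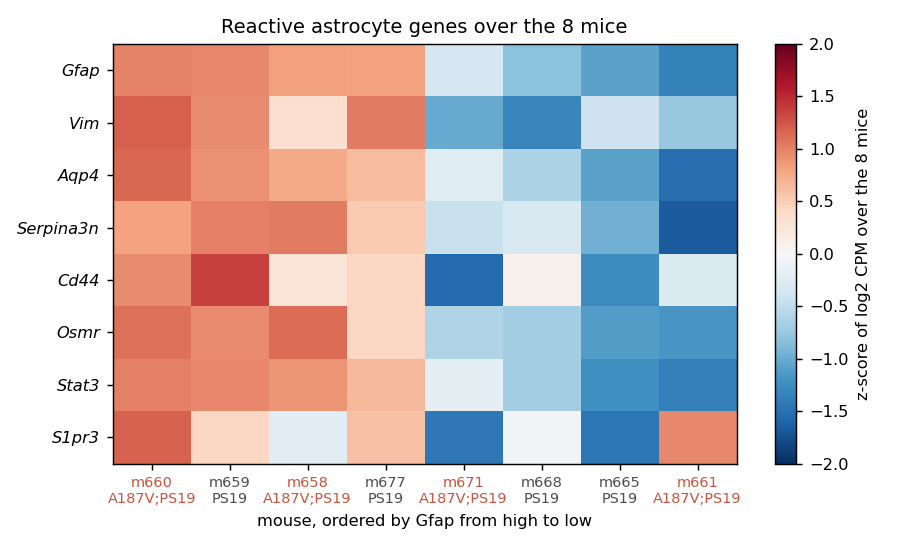
Z-scores of log2 CPM over the 8 mice (colour) for the 8 tested genes (rows), with mice (columns) ordered by Gfap from high to low and their genotypes written below. The 4 mice on the left have scores above 0 for 7 of the 8 genes, and S1pr3 departs from this in m658 and m661.

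The correlation with Gfap was positive for all 7 genes, and for 5 of them the exact 2-sided permutation p was under 0.05. Over all genes the same held for 987 of 17194 or 5.74%, and a negative correlation with such a p for 727 or 4.23%. Stat3 had a Pearson's r of 0.993 and a Spearman's rho of 1, and Aqp4 an r of 0.991 and a rho of 1. For both genes the exact permutation p of r was 2.48e-05, the smallest that 8 mice allow. Osmr had an r of 0.972 (exact permutation p = 0.00166) and a rho of 0.929 (exact permutation p = 0.00223). Serpina3n had an r of 0.959 (exact permutation p = 0.000818) and a rho of 0.881 (exact permutation p = 0.00724). Among the 7 genes these 4 had the highest r with Gfap.

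Vim had an r of 0.872 (exact permutation p = 0.0190) and a rho of 0.738 (exact permutation p = 0.0458). The remaining genes were the surface receptors. Cd44 had an r of 0.705 (exact permutation p = 0.0609) and a rho of 0.786 (exact permutation p = 0.0279), so its side of the threshold depended on the measure. S1pr3 had an r of 0.377 (exact permutation p = 0.346) and a rho of 0.333 (exact permutation p = 0.428). Without m661 its r was 0.76, and without m665 it was 0.17.

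After Benjamini-Hochberg adjustment over all genes compared with Gfap, none of the 7 genes passed, and neither did any other of the 17194. The smallest adjusted p, 0.0533, was shared by 8 genes, Stat3, Aqp4 and the microglial gene Clec7a among them (exact permutation p-values adjusted over all genes). With 8 mice the unadjusted p cannot fall below 2.48e-05.

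The correlations were also taken within genotypes. Over deviations from the genotype means, 5 of 7 genes again had a positive r with an exact permutation p under 0.05, beside 5.49% of all genes. This r was 0.995 for Stat3, 0.991 for Aqp4, 0.976 for Osmr, 0.965 for Serpina3n, 0.876 for Vim, 0.720 for Cd44 and 0.376 for S1pr3. Without m665 and m661, the 2 mice farthest from the median of Gfap, r was 0.993 for Stat3, 0.987 for Aqp4, 0.949 for Osmr, 0.928 for Serpina3n, 0.969 for Vim, 0.672 for Cd44 and 0.629 for S1pr3.

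The 8 mice came close to 2 separate clusters. The gap between m677 and m671 took 0.491 of the whole range of Gfap on the log2 scale, just under the limit of 0.5 set for giving no pooled r, and 0.602 of the range on the CPM scale. A correlation over these mice is thus in large part a comparison of the upper 4 with the lower 4. Leaving out m661, alone or with m665, keeps this gap and shortens the range, so the gap then passes the limit of 0.5 on the log2 scale. Without both, m671 and m668 alone stood below it, at 8.47 and 8.00 log2 CPM, against 9.55 to 9.71 in the upper 4. The values of r without these mice thus rest still more on the gap and cannot check it. No correlation was computed within either set of 4 mice.

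**Figure D4:**
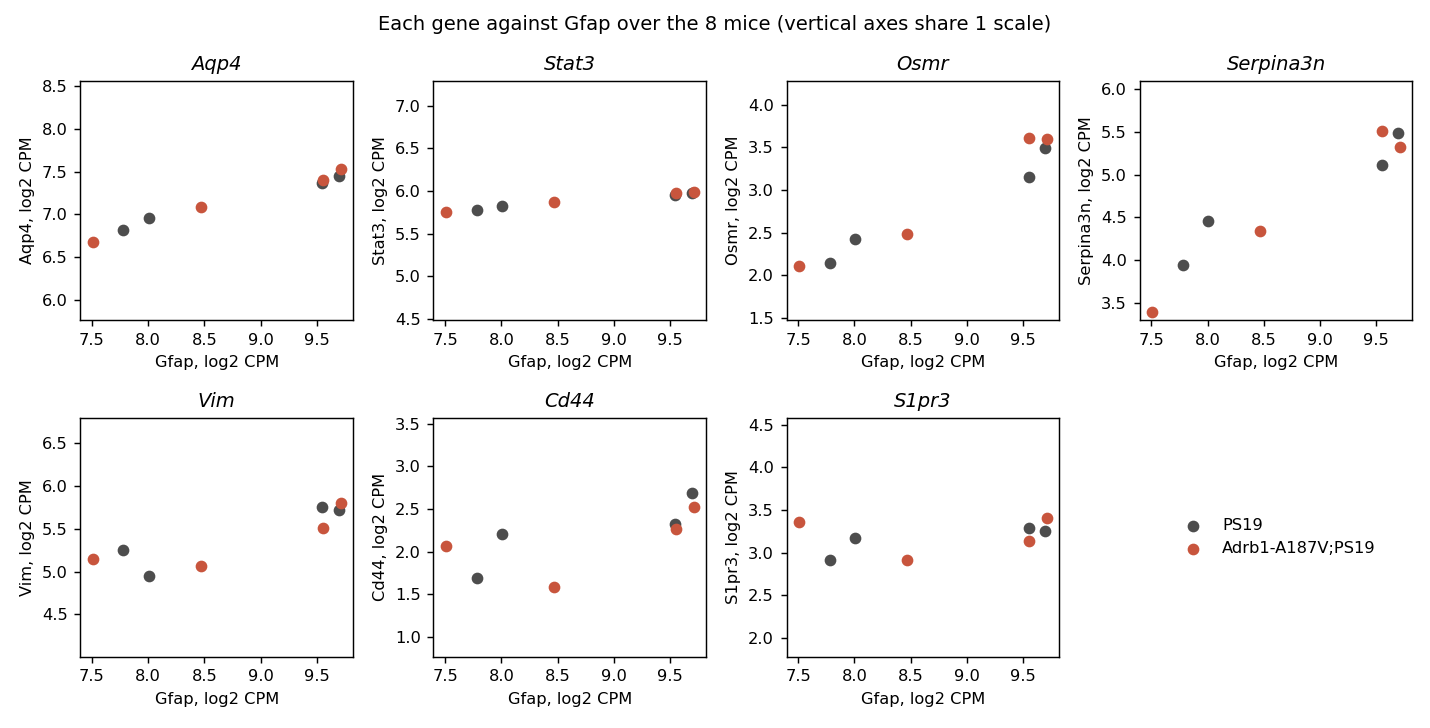
Log2 CPM of 7 genes (vertical axes, all on 1 scale) against that of Gfap (horizontal axes) in 4 PS19 (grey) and 4 Adrb1-A187V;PS19 (red) mice. A gap in Gfap parts the 4 mice on the right from the others. Aqp4 and Stat3 keep the order of the mice in Gfap, with a shallow slope for Stat3. Osmr and Serpina3n do not keep it but are higher in the 4 mice on the right, and S1pr3 shows neither.

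Over all 28 pairs of the 8 genes, every r was positive, with a median of 0.81 and a range of 0.27 to 0.99, and 18 pairs had an exact permutation p under 0.05. Over all 137552 comparisons of these 8 genes with every tested gene, 7016 or 5.10% had a positive r with such a p. None of the 28 pairs passed after adjustment over all genes. Without S1pr3 the median of the 21 pairs was 0.87. The highest was that of Aqp4 with Stat3, at 0.993. The only pair with S1pr3 that passed was that with Cd44, with an r of 0.801 (exact permutation p = 0.0195) and a rho of 0.619 (exact permutation p = 0.115). This relation rested on 2 mice, since without m665 and m671, the lowest for S1pr3, r was 0.163.

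Of 3 measures of whole libraries set against Gfap, 1 had an adjusted exact permutation p under 0.05 for r, and none had one for rho. That 1 was a component computed in part from Gfap itself. The first principal component of all tested genes, these 8 included, held 21.9% of the variance and had an r of 0.985 with Gfap (exact permutation p = 0.00117, 0.00350 adjusted over the 3 relations) and a rho of 0.810 (exact permutation p = 0.0218, 0.0653 adjusted). The sign of this component was set to give a positive r with Gfap. Gfap and the genes that vary with it also helped to build the component, so its r and rho are not between separate measures. Their p-values kept the component fixed and are a description. The share of counts from mitochondrial genes, 4.58% to 5.31%, had an r of 0.575 (exact permutation p = 0.123, 0.184 adjusted) and a rho of 0.5 (exact permutation p = 0.216, 0.324 adjusted). The total count had an r of -0.465 (exact permutation p = 0.262, 0.262 adjusted) and a rho of -0.310 (exact permutation p = 0.462, 0.462 adjusted). Without m665 and m661, r was 0.988 for the component, 0.508 for the mitochondrial share and 0.723 for the total count, whose sign thus turned. The part of these measures in the correlations among the genes was not tested.

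With the 9 genes themselves left out, the genes whose pattern was most like that of Gfap, among genes with a mean of at least 5 CPM and over the 8 mice, were Mpeg1, C1qa and Lag3 with an r of 0.994 each, B2m with 0.993 and Fcrls with 0.992. Mpeg1 encodes the macrophage protein perforin-2, C1qa a chain of complement C1q, and B2m the light chain of MHC class I. For the mean z-score of the 8 genes, the most alike were H2-D1 and Itgb2 with an r of 0.990 each, B2m and Arhgef26 with 0.986 each, and Tgfbr2 with 0.984. Lists of genes of other cells and pathways were set beside the reactive astrocyte genes, and a list gene is said to pass where its r with Gfap had an exact permutation p under 0.05. Disease-associated microglia genes had a median r with Gfap of 0.971, and 10 of 11 passed in the positive direction, with Ctsd, a lysosomal protease gene, at 0.990 and Lpl at 0.649. Their summed level was 533.5 to 583.5 CPM in the upper 4 mice and 329.7 to 416.5 CPM in the lower 4. Microglia markers had a median r of 0.827, and 3 of 6 passed, while P2ry12, a purinergic receptor gene, had an r of 0.545. Their sums were 364.0 to 421.6 CPM in the upper 4 mice and 270.1 to 331.8 CPM in the lower 4. Their part in the level of Cd44 and of the other genes was not tested.

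Genes of resting astrocytes varied less. Their median r with Gfap was 0.611 and 5 of 14 passed, among them Atp1b2, a sodium pump subunit, at 0.947. Aldh1l1, a general astrocyte marker, had an r of -0.314. Their summed level was 8153 to 8449 CPM in the upper 4 mice and 7701 to 7923 CPM in the lower 4, a much smaller difference than that of Gfap. Of 6 vascular endothelial, 5 mural and 6 oligodendrocyte markers none passed in either direction, and their median r was -0.01, 0.14 and -0.13. All 6 fibroblast markers had a positive r, with a median of 0.432, and 1 passed, the collagen gene Col1a1 at 0.750 (exact permutation p = 0.0421). Neuron markers had a median r of -0.456, and of the 6, Snap25, a synaptic vesicle fusion gene, passed with an r of -0.848 (exact permutation p = 0.00813). Neutrophils also make Lcn2, and the sum of 6 neutrophil markers was 0.396 to 1.53 CPM, where Lcn2 itself had at most 0.429 CPM. Their part in its level was not tested.

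The other genes of reactive astrocytes and of their pathways followed Gfap in part. Of 5 further pan-reactive genes 2 passed, with Aspg at 0.894 and Timp1, a metalloproteinase inhibitor gene, at 0.307. Of 12 genes named for the response to lipopolysaccharide 5 passed, from H2-D1, an MHC class I gene, at 0.949 to Fbln5 at -0.495. Of 9 genes named for the response to ischaemia 2 passed, from Sphk1, a sphingosine kinase gene, at 0.915 to B3gnt5 at -0.565. For the route of Osmr and Stat3, 4 of 13 receptor, JAK and STAT regulator genes passed, with Stat5b at 0.934 and Socs1, a feedback inhibitor gene, at -0.313. The ligand genes Lif, at 0.680, and Clcf1, at -0.02, were the 2 of 6 with enough counts to test, and neither passed.

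Partners of the remaining genes were mixed. Of 8 genes of the endfoot and of Aqp4 anchoring 1 passed, the adhesion gene Hepacam at 0.731, and Dmd, the dystrophin gene, had -0.459. Of 3 filament partners none passed, from Nes, the nestin gene, at 0.531 to Plec, the plectin gene, at -0.450. Of 9 genes of sphingosine-1-phosphate 4 passed in the positive direction, led by Sphk1, and 1 in the negative, the receptor gene S1pr2 at -0.779 (exact permutation p = 0.0319). Of 8 hyaluronan and Cd44 partners 3 passed, led by Msn, the moesin gene, at 0.962, and Hyal2, a hyaluronidase gene, had -0.387.

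**Figure D5:**
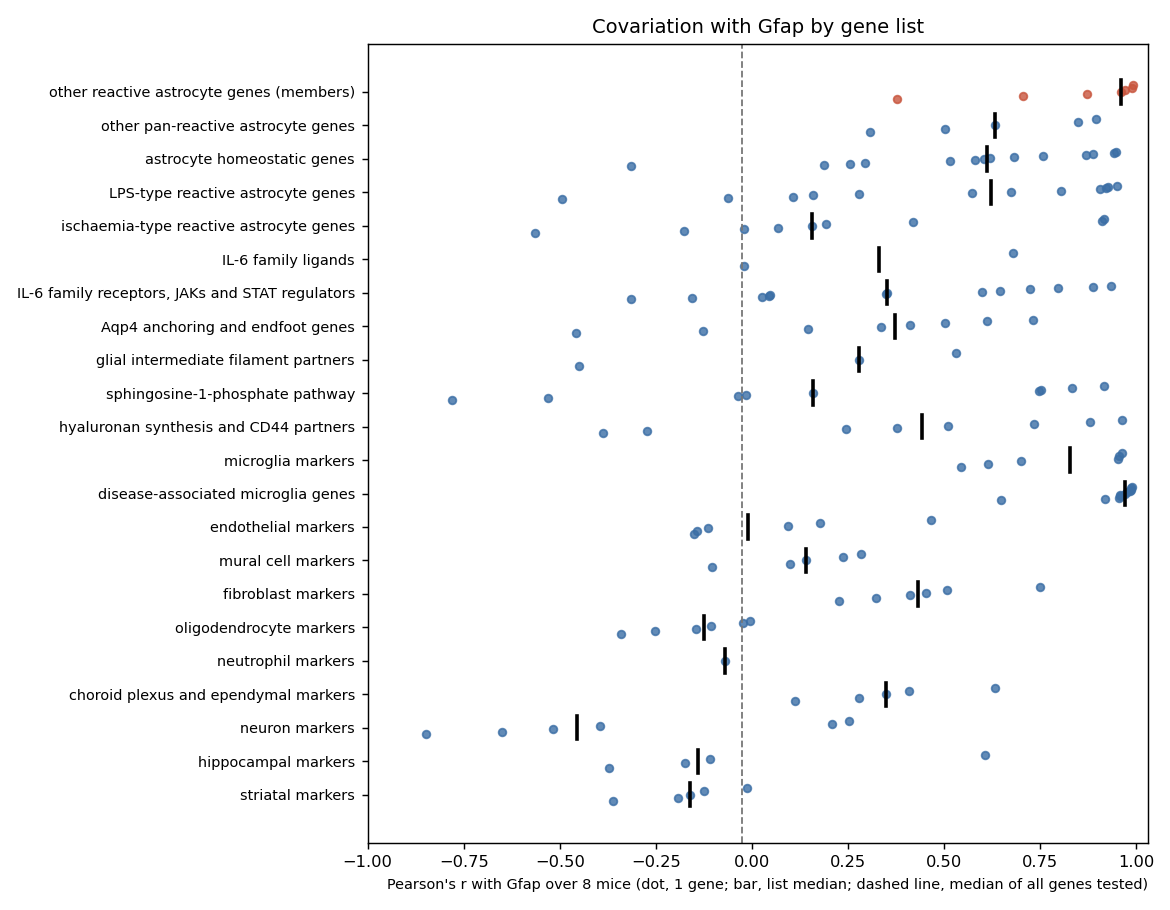
Pearson's r with Gfap over the 8 mice (horizontal axis) of each tested gene (dots) in the other reactive astrocyte genes (red) and in 21 lists of related genes and cell type markers (blue), with black bars at the list medians and a dashed line at the median of all genes tested. The median of the disease-associated microglia genes, 0.971, is the highest of the 21 lists, with Lpl apart at 0.649, and that of the neuron markers, -0.456, is the lowest, while S1pr3 and Cd44 lie below the other red dots.

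The lists were also compared between the genotypes. Of 142 tested genes in the 21 lists, 4 or 2.82%, a share like the 2.80% of all genes tested, had an unadjusted p-value under 0.05 in edgeR's quasi-likelihood test, 3 higher and 1 lower in Adrb1-A187V;PS19 mice. The syntrophin gene Sntb1, in the list of Aqp4 anchoring, had a log2 fold change of 0.55 (SE 0.20). The others stood in the neuron and hippocampal lists. Gad2, for GABA synthesis, had 0.24 (SE 0.07), Zbtb20 had 0.24 (SE 0.11) and Slc17a7, a glutamate transporter gene of neurons, had -0.19 (SE 0.07). None had an adjusted p-value under 0.05. The count was 12 without PS19 mouse m668, 10 without Adrb1-A187V;PS19 mouse m661 and 2 without PS19 mouse m659. In the 8 fits that each left out 1 mouse, Zbtb20 lost its unadjusted p-value under 0.05 in 5, Slc17a7 in 4 and Sntb1 in 1. Gad2 kept it in all 8. A place in a list does not show which cells made the RNA. The lists of pan-reactive, lipopolysaccharide-type and ischaemia-type genes, and of interleukin-6 family receptors and STAT regulators, held none of the 4.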

How the data were processed

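RNA-seq of dissected cortex from 8 mice was analysed. The authors used HISAT2 2.0.5 for alignment to GRCm38, featureCounts 1.5.0-p3 for counting and DESeq2 1.20.0 for the genotypes, per their processing notes. Whether counting used strand, pairs or reads mapped to several places is not given in the sources used here. The deposited values are raw counts per Ensembl gene, and the deposited gene length served for levels per kb. Groups were taken from the genotype labels, and p-values measure the spread between separate mice.

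Genes were kept by edgeR's filterByExpr, normalized with TMM factors and compared by the 2-sided quasi-likelihood test of edgeR 4.0.16 (R 4.3.3) without covariates. P-values were adjusted by Benjamini-Hochberg over the 17195 genes. The study selected genes at an unadjusted p-value under 0.05 with DESeq2, and DESeq2 1.42.0 and limma 3.58.1 (voom) served as alternatives. An SE is the log2 fold change divided by the square root of F. Correlations used log2 CPM (prior count 2) and all 40320 orders of the 8 mice. A list gene passed at an exact p under 0.05. The fits were tested on simulated data. Promoter windows are from RefSeq.

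The members and lists were chosen with earlier results of these data known. Genes outside the members were named by rule: per list, any with an unadjusted p-value under 0.05 between genotypes and the highest and lowest r with Gfap, and the 5 genes most like Gfap and the 5 most like the mean z-score. The 2 genes of each list with the smallest p were part of the rule, and where they did not pass they are given as counts. The value of 1 gene that the rule names is not reported here. The 14 alternatives to the genotype test were another test, size factors or filter, protein-coding genes alone and each mouse left out. At 14653222 to 21223754 counts per mouse, genes such as Lcn2 stayed near 0.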

Additional observations from a re-analysis of the deposited data

Results flagged for a closer look

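Among 60 sets of 4 mice of 1 genotype checked for a mouse far from the other 3, the gap exceeded Dixon's 95% critical value in 3, and chance gives about 1 in 20. None was a reactive astrocyte gene. The summed level of interleukin-6 family ligand genes was 5.57 CPM in PS19 mouse m677, where the other 3 PS19 mice had 3.55 to 3.73 CPM. The summed level of endothelial markers was 202.1 CPM in PS19 mouse m659, and 225.2 to 228.2 CPM in the others of that genotype. The summed level of choroid plexus and ependymal markers was 586.7 CPM in Adrb1-A187V;PS19 mouse m658, and 33.0 to 82.4 CPM in the others of that genotype. This sum did not follow Gfap. It was 371.8 CPM in PS19 mouse m668, with low Gfap, and 33.6 CPM in PS19 mouse m677 and 36.8 CPM in Adrb1-A187V;PS19 mouse m660, with high Gfap. All 3 flagged mice were among the 4 with high Gfap, but 3 flags in 60 sets are no more than chance gives. The endothelial flag was also low where the others were high. The part of the flagged values in the level of Gfap was not tested.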

How the results depend on the processing

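No paired analysis was possible because no label names a litter and every mouse has a separate number. The count of reactive astrocyte genes with an unadjusted p-value under 0.05 between genotypes stayed at 0 under all 14 alternatives. With no filter beyond 1 count, edgeR gave 1366 genes at the unadjusted threshold, 66 at the adjusted one, and 15 genes of the 21 lists of related genes and markers, beside 4 with the filter. The cause was not tested. Leaving out 1 mouse at a time gave 431 to 674 genes, 0 to 2 adjusted calls (1 without Adrb1-A187V;PS19 mouse m661 and 2 without m658) and 2 to 12 list genes (12 without PS19 mouse m668, 10 without m661 and 2 without m659).

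The sign of a log2 fold change turned on leaving out a mouse for Gfap (-0.26 to 0.38), Vim (-0.21 to 0.066), Aqp4 (-0.089 to 0.18), Serpina3n (-0.31 to 0.28), Cd44 (-0.28 to 0.065), Osmr (-0.029 to 0.47), Stat3 (-0.020 to 0.060) and S1pr3 (-0.021 to 0.15), and for the list genes Abcc9 (-0.011 to 0.27), Aif1 (-0.27 to 0.0044), Clcf1 (-0.13 to 0.14), Ctsz (-0.020 to 0.24), Kl (-0.74 to 0.72), Mag (-0.098 to 0.019) and Mbp (-0.11 to 0.024). At an exact permutation p under 0.05, 5 to 6 of 7 genes covaried with Gfap, and 12 to 22 of 28 pairs covaried when 1 mouse was left out, the lowest without m660 and the highest without m661. Lcn2, at 0 to 7 counts, allows no statement on its order over the mice, and 4 mice per genotype leave the interval of Gfap wide.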
